A study of Mus musculus with 22 samples.

Results

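The AMPA and kainate receptor subunits are the 9 genes Gria1, Gria2, Gria3 and Gria4 (AMPA) and Grik1, Grik2, Grik3, Grik4 and Grik5 (kainate). They were taken by name: each is the row of the count table whose Ensembl ID carries that symbol, and the rule itself uses no measured value. They make up 9 of the 53379 genes in the table, and all 9 were among the 40714 genes that passed the filter on low counts. The libraries come from nuclei of the left hippocampus of adult male C57/BL6N mice, for which no transgene is named. At 24 h before collection, kainate (K) or NaCl (sham, S) had been injected above the right hippocampus, so that the tissue is contralateral (L) to the injection. Only kainate mice with convulsive seizures were kept. Nuclei were sorted by NeuN, a nuclear protein of most mature neurons, into NeuN+ nuclei (p, here neurons) and NeuN− nuclei (n, here glia). The glia fraction can therefore also hold endothelial cells, pericytes and neurons that stain weakly. For each treatment 8 mice were combined into 3 pools, 1 of 4 mice and 2 of 2 mice, which gave 3 libraries of kainate neurons (KLp), 3 of sham neurons (SLp), 3 of kainate glia (KLn) and 2 of sham glia (SLn). The titles and the design text name the left hippocampus, whereas the extraction text in the labels names the right one.

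AMPA and kainate receptors are cation channels of 4 subunits each that open when glutamate binds. AMPA receptors carry most of the fast excitatory current at hippocampal synapses, and a receptor that contains the Gria2 protein lets little calcium through once its transcript has been edited. Grik1, Grik2 and Grik3 form kainate receptors on their own, whereas Grik4 and Grik5 bind kainate with high affinity and need one of the others to make a channel. Kainate, the agent injected here, is an agonist of both families. In glia, oligodendrocyte precursors and astrocytes are known to carry some of these subunits.

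Each library held 12058875 to 45428465 counts, and a subunit had from 218 counts (the lowest) to 120803 counts (the highest) in a library. The 9 genes took 0.440% to 0.622% of the counts in neurons and 0.0802% to 0.175% in glia. Values are CPM (counts divided by the library total and set to a common scale) after TMM scaling, which adjusts for unequal library composition. One kainate glia library (replicate 2) and one sham glia library (replicate 1) were made from 0.05 ng RNA with 15 PCR cycles, and the other 9 from 1 ng with 10 cycles. Neuron markers were at 1375 to 3400 summed CPM in neurons and 292 to 549 in glia, and oligodendrocyte markers at 175 to 389 against 3883 to 34507. Within each treatment, the library of replicate 1 had the highest summed neuron markers among neurons (2786 and 3400), and in sham glia it had the highest oligodendrocyte markers (34507 against 7325 in replicate 3).

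The genes lie on 8 chromosomes of mm10, and Gria4 and Grik4 share chromosome 9. By GENCODE coordinates on this build Gria1 is at chr11:57011387-57330244 (+), Gria2 at chr3:80681450-80802835 (−), Gria3 at chrX:41400854-41678601 (+) and Gria4 at chr9:4417896-4796234 (−). Grik1 is at chr16:87895900-88290265 (−), Grik2 at chr10:49094833-49788766 (−), Grik3 at chr4:125490700-125714173 (+), Grik4 at chr9:42518135-42944493 (−) and Grik5 at chr7:25009849-25072346 (−). They span 62.5 kb (Grik5) to 694 kb (Grik2), whereas their merged exons cover 5.17 kb (Grik5) to 15.5 kb (Gria2). A gene with longer exons collects more reads, so levels of different genes are compared only as CPM per kb of merged exon. Exons of Gria2, Gria3, Gria4 and Grik4 overlap a small RNA gene on the same strand by under 1% of their length.

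RefSeq promoters run from 250 bases before to 50 after the RefSeq gene start (GRCm38.p6, the same build). For some genes, Grik4 among them, this start is not the GENCODE start given above. Promoters were matched for 6 of the 9 genes, namely Gria2, Gria4, Grik2, Grik3, Grik4 and Grik5. Those of Gria2 and Grik4 are printed because Gria2 had the most counts of the family and Grik4 was the subunit whose neuronal level was higher in every kainate library. Capitals mark a match, on either strand, to the core of the nuclear respiratory factor 1 (NRF1) motif, which is GCGC on either side of 2 free bases, or to the Sp1 box, GGGCGG.
Gria2, chr3:80802786-80803085 (−): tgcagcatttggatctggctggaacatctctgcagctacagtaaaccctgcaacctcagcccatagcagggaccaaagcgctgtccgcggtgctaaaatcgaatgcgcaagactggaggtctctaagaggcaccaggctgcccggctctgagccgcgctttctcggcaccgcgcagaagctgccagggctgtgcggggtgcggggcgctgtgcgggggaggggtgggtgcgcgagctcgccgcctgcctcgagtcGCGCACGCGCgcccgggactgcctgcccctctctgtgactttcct
Grik4, chr9:42944322-42944621 (−): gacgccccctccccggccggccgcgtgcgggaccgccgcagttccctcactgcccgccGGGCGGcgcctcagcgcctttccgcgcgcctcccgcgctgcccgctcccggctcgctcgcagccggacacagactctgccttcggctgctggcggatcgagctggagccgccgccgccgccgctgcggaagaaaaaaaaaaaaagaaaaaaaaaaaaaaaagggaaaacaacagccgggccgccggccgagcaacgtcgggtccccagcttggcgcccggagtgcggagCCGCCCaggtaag
The Gria2 window held 1 NRF1 core, which begins 5 bases after the gene start, and no Sp1 box, whereas the Grik4 window held 2 Sp1 boxes and no NRF1 core. Among 32851 promoter windows of this length, 6.23% held the NRF1 core and 35.7% the Sp1 box. Sp1 boxes were also found 7 times in the Grik3 window and 2 times in that of Grik5, and 1 NRF1 core in that of Gria4. There it overlapped a match to the Egr1 site (GCGNGGGCG), which 5.55% of all windows held. Of the other motifs searched, the short form of the cAMP response element (TGACG, in 20.8% of windows) was found 1 time, in Grik2. The full element (TGACGTCA, in 1.79%), the AP-1 site (TGANTCA, in 7.81%) and the TATA box (TATAAA, in 13.6%) matched none of the 6. The 6 windows were 59.7% to 82.0% G and C, against a median of 52.7% over all windows, and held 10 to 50 CpG sites against a median of 7.

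The neuronal levels were led by Gria1 and Gria2, which encode the pair of subunits found together in most AMPA receptors of hippocampal pyramidal cells. Per kb of exon, sham neurons had 296 ± 12.5 CPM of Gria1 (mean ± SD, n = 3) and 242 ± 46.8 of Gria2, and their ranges overlapped. Among all genes these levels per kb ranked 42 and 52. Grik5 followed at 49.9 ± 8.50, Gria3 at 27.8 ± 5.88, Grik4 at 20.999 ± 2.32, Grik2 at 20.5 ± 4.11 and Gria4 at 18.8 ± 6.08. The ranges of Grik4, Grik2 and Gria4 overlapped from one to the next, whereas those of Grik5 and Gria3 did not, nor those of Gria3 and Grik4. The lowest were Grik1 at 9.01 ± 2.83 and Grik3 at 3.59 ± 0.323, each separate from its neighbours in the order.

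In sham glia the order was led by Gria2 alone, at 50.8 ± 20.1 CPM per kb (mean ± SD, n = 2), above Gria1 at 25.5 ± 8.79 with no overlap. Grik5 was at 14.5 ± 7.15, Gria4 at 10.0 ± 3.76, Grik2 at 7.03 ± 2.28, Grik1 at 6.11 ± 1.88, Gria3 at 5.33 ± 1.58 and Grik4 at 4.8 ± 1.15, each overlapping the next. Grik3 was again the lowest, at 1.84 ± 0.407. After kainate the glia order was Gria2, Gria1, Grik5, Grik2, Gria4, Grik4, Grik1, Gria3 and Grik3, from 34.3 ± 2.39 down to 2.59 ± 0.536 (n = 3). Here the ranges of Gria2, Gria1, Grik5 and Grik2 overlapped from one to the next. Those of Gria4 and Grik4 also overlapped, as did those of Grik1 and Gria3.

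**Figure D1:**
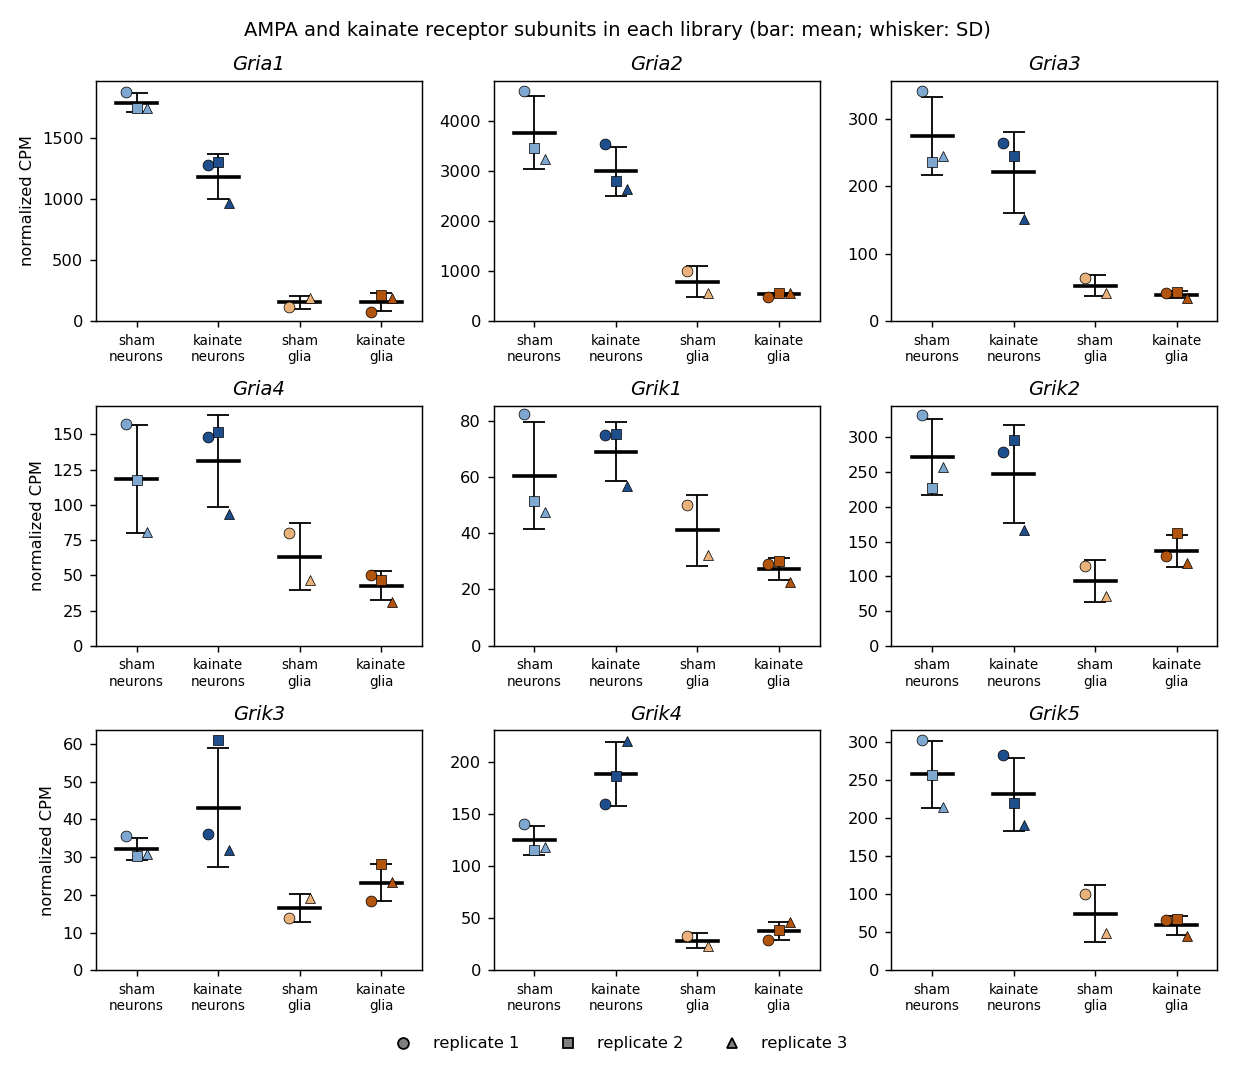
Normalized CPM (vertical axis, linear from 0) of each subunit in the 11 libraries, by group, with the mean (bar) and SD (whisker) and 1 symbol per replicate number. All 9 genes have their highest group mean in a neuron group, and kainate and sham neurons separate only for Gria1 (lower after kainate, 969 to 1299 against 1741 to 1876 CPM) and Grik4 (higher after kainate, 160 to 221 against 116 to 141 CPM).

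The first comparison asked in which fraction the subunits were expressed. All 9 were higher in neurons than in glia over both treatments (edgeR's quasi-likelihood test, FDR below 0.25 after Benjamini-Hochberg adjustment over all genes tested), whereas 16.8% of all genes tested were called higher in neurons and 20.4% lower. The median log2 fold change was 2.40 for the 4 AMPA subunits and 1.20 for the 5 kainate subunits, beside −0.47 over all genes. The p-values rest on the spread between pools of mice, and part of that spread may be technical.

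Among the AMPA subunits, Gria1 differed the most, by 3.22 on the log2 scale (SE 0.37, adjusted p = 4.31e-05). It lay between 969 and 1876 CPM in the 6 neuron libraries and between 75.4 and 211 CPM in the 5 glia libraries. Gria2 was at 2638 to 4597 CPM in neurons and 491 to 1010 in glia (log2 fold change 2.37, SE 0.32, adjusted p = 0.000134). Gria3 differed by a like amount, 2.43 (SE 0.28, adjusted p = 4.84e-05), with 152 to 341 CPM against 34.3 to 63.5. Gria4, the AMPA subunit known from interneurons and oligodendrocyte precursors, differed by 1.26 (SE 0.29, adjusted p = 0.00702). Its lowest neuron library (sham replicate 3, 80.9 CPM) was just above its highest glia library (sham replicate 1, 80.0 CPM).

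Of the kainate subunits, the high-affinity Grik4 and Grik5 differed the most between the fractions. Grik4 was at 116 to 221 CPM in neurons and 23.8 to 46.8 in glia (log2 fold change 2.22, SE 0.26, adjusted p = 4.99e-05), and Grik5 at 191 to 302 against 44.99 to 101 (1.87, SE 0.29, adjusted p = 0.000358). The channel-forming subunits had smaller differences, of 1.20 for Grik2 (SE 0.28, adjusted p = 0.00694), 0.95 for Grik1 (SE 0.26, adjusted p = 0.0191) and 0.93 for Grik3 (SE 0.26, adjusted p = 0.0231). Grik1 was the one gene of the 9 whose fractions overlapped, with 47.7 to 82.4 CPM in neurons and 22.8 to 49.97 in glia. Whether the differences of any pair of subunits were unequal was not tested.

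Some neuronal RNA was measured in glia, and its part in the glial levels was not tested. In sham glia Rbfox3, which encodes NeuN, was at 13.6% of its level in neurons, and Syt1 and Snap25 of synaptic vesicle release were at 12.2% and 24.7%. The fourth neuron marker, the tubulin gene Tubb3, was at 97.0% and did not separate the fractions. The excitatory markers were at 7.16% (Slc17a7) to 12.85% (Neurod6), and the GABAergic markers at 22.3% (Sst) to 68.0% (Pvalb). Gria1 was at 8.63%, Gria3 at 19.2%, Gria2 at 20.96%, Grik4 at 22.9% and Grik5 at 29.0% of the neuronal level. The percentages were larger for Grik2 (34.3%), Grik3 (51.3%), Gria4 (53.3%) and Grik1 (67.8%). After kainate they ran from 13.4% (Gria1) to 55.3% (Grik2), with Grik1 at 39.6% and Gria4 at 32.5%, while the 4 neuron markers ran from 13.1% (Syt1) to 121% (Tubb3). Markers of other cells separated the fractions in the other direction, with 4 of 4 oligodendrocyte precursor, 4 of 4 oligodendrocyte, 4 of 4 microglia and 5 of 5 astrocyte markers lower in neurons.

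**Figure D2:**
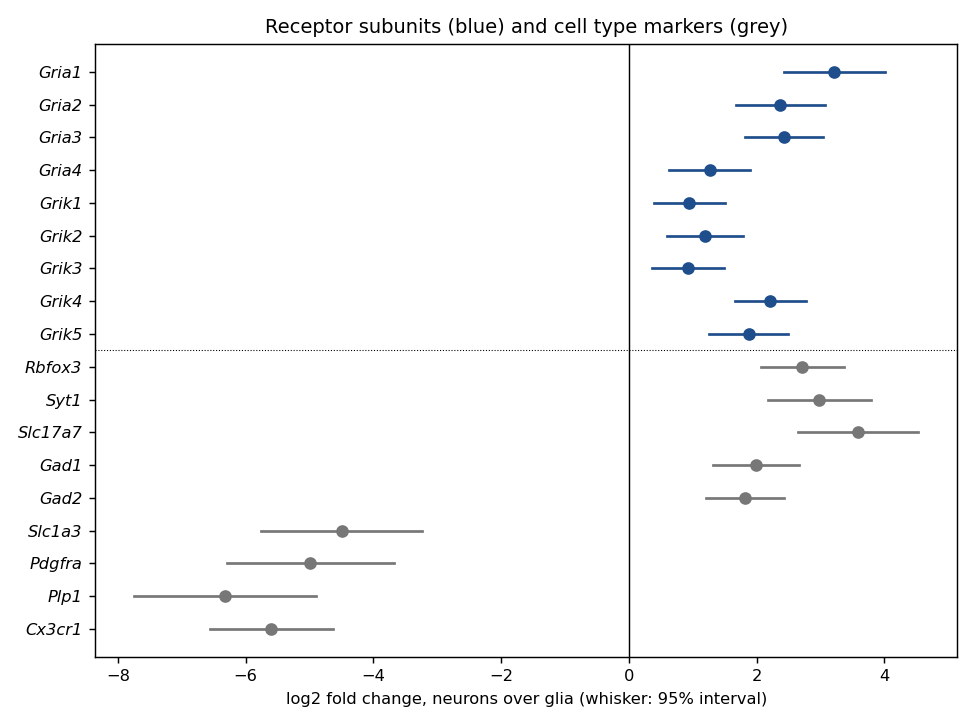
Log2 fold change of neurons over glia across both treatments (horizontal axis, whisker 95% interval) for the 9 subunits (blue) and selected markers of neurons, astrocytes, oligodendrocyte precursors, oligodendrocytes and microglia (grey). The subunits run from 0.93 (Grik3) to 3.22 (Gria1), all above 0, with Gria1, Gria2 and Gria3 near Rbfox3 (2.72), Grik4 at 2.22, and Gria4, Grik1, Grik2, Grik3 and Grik5 between 0 and 2.

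Taken within a treatment, the fractions showed the same direction for all 9 genes. In sham mice 7 of 9 were higher in neurons, where 9.11% of all genes were. The exceptions were Gria4 (log2 fold change 0.91, SE 0.43, adjusted p = 0.300) and Grik1 (0.56, SE 0.38, adjusted p = 0.545). The 2 fractions of a sham sample come from the same mice, and with each pool as a replicate block both were called as well (Gria4 0.89, adjusted p = 0.0242, Grik1 0.65, adjusted p = 0.0906), when 18.3% of all genes were called higher. Without the low-input library sham glia replicate 1, which leaves 1 sham glia library that is assumed to vary like the other groups, both were called (adjusted p = 0.158 and 0.241), as was Gria4 without sham neurons replicate 3 (0.243). Grik3 was called in sham mice (0.96, adjusted p = 0.190) but not without sham neurons replicate 1 (0.364), 2 (0.279) or 3 (0.292), sham glia replicate 1 (0.316) or kainate glia replicate 3 (0.397). With the pool as a block its adjusted p was 0.0345. Of 22 settings run, 12 called Grik3 in sham mice.

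After kainate 9 of 9 were higher in neurons, where 11.3% of all genes were. Grik2 had the smallest difference (0.85, SE 0.36, adjusted p = 0.189), with 166 to 296 CPM in neurons and 118 to 163 in glia. Its call was lost without kainate neurons replicate 1 (adjusted p = 0.446) or 2 (0.503), kainate glia replicate 1 (0.292), 2 (0.266) or 3 (0.374), or sham neurons replicate 3 (0.257). Grik3 (0.89, adjusted p = 0.140) was likewise not called without kainate neurons replicate 2 (0.548) or kainate glia replicate 1 (0.277) or 3 (0.345). With the pool as a block both were called as well (adjusted p = 0.0193 for Grik2 and 0.0240 for Grik3). Of 22 settings run, 14 called Grik2 and 18 called Grik3 after kainate.

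The comparison at the centre of the study asked how expression in the contralateral hippocampus differed 24 h after the injection. In neurons none of the 9 subunits passed the test (0 of 9 at FDR below 0.25, and 0 of 9 at an unadjusted p below 0.05), where 0.165% of all genes passed the first threshold and 2.09% the second. DESeq2's Wald test called 0 of 9 as well, and 1.66% of the 21722 genes to which it gave an adjusted p. Kainate and sham neurons did not overlap for 2 of the 9, Gria1 and Grik4, and 7.86% of all genes tested were free of overlap. The medians were −0.32 for the AMPA and 0.19 for the kainate subunits, beside −0.01 over all genes.

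Gria1 was at 1277, 1299 and 969 CPM in the kainate neurons (replicates 1, 2 and 3) and at 1876, 1749 and 1741 CPM in the sham neurons. All kainate libraries lay below all sham libraries, with group means of 1182 ± 185 and 1789 ± 75.6 CPM (SD, n = 3 each). The log2 fold change was −0.60 (SE 0.43, 95% interval −1.52 to 0.32, adjusted p = 1). What the replicate numbers share between treatments is not given. With the number taken as a block the log2 fold change was −0.61 (SE 0.18, adjusted p = 0.0402), in a fit that called 5.09% of all genes. Gria1 was thus called downregulated in neurons only with the block.

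Grik4 was at 160, 186 and 221 CPM in kainate neurons and at 141, 116 and 119 CPM in sham neurons. Here the groups were again apart, kainate on top, and the means were 189 ± 30.6 and 125 ± 13.8 CPM (SD, n = 3 each). The log2 fold change of 0.59 (SE 0.32, 95% interval −0.10 to 1.28, unadjusted p = 0.0866 from edgeR) was the one nearest to its threshold among the 9, with adjusted p = 1. With the replicate block it was 0.59 (SE 0.20, adjusted p = 0.110), a call. Cell type markers differed between kainate and sham neurons only with the block, as the fit of group means called 0 markers of any list in neurons. With the block 3 of 5 astrocyte markers were higher and 2 of 5 lower. In the same fit 1 of 4 oligodendrocyte precursor markers and 2 of 5 GABAergic markers were higher, and 1 of 3 excitatory (Camk2a) and 1 of 4 oligodendrocyte markers were lower. Of 4 microglia markers 1 was higher and 1 lower, and 0 of 4 neuron markers were called. Summed astrocyte markers were at 68.7 to 218 CPM in kainate and 66.1 to 124 in sham neurons, and summed GABAergic markers at 297 to 629 and 179 to 591. Their part in the values of Gria1 and Grik4 was not tested.

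The remaining 7 subunits overlapped between kainate and sham neurons. Gria2 was at 2638 to 3552 CPM after kainate and 3237 to 4597 in sham neurons (−0.33, 95% interval −1.18 to 0.52). Gria3 had a fold change of −0.31, Grik2 of −0.14 and Grik5 of −0.16, and Gria4 of 0.14, Grik1 of 0.19 and Grik3 of 0.42. In Grik3 the kainate library of replicate 2 stood at 61.2 CPM, above 36.2 and 32.0 in the others and 30.3 to 35.5 in sham neurons. Their 95% intervals reached from −1.18 (Gria2) to 1.15 (Grik3) and all included 0. With the replicate block the SEs of these 7 were smaller, from 0.18 (Grik5) to 0.21 (Grik3), and none of the 7 was called.

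In glia 0 of 9 subunits passed the test (0.101% of all genes did), and 0 of 9 had an unadjusted p below 0.05 (2.05% of all genes had). DESeq2's Wald test also called 0 of 9, and 1.43% of 17780 genes with an adjusted p. Kainate and sham glia did not overlap for Gria2, Grik1 and Grik2, 3 of 9, where 8.22% of all genes were free of overlap with 3 libraries against 2. The medians were −0.49 for the AMPA and 0.42 for the kainate subunits, beside 0.02 over all genes.

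Gria2 was at 491, 558 and 552 CPM in kainate glia and at 1010 and 569 CPM in sham glia (replicates 1 and 3). The groups were separated by less than the distance between the sham libraries, and the log2 fold change was −0.57 (SE 0.44, adjusted p = 1). Grik2, the most abundant channel-forming kainate subunit, was at 129, 163 and 118 CPM in kainate glia against 114 and 71.8 in sham glia, with a log2 fold change of 0.55 (SE 0.41, adjusted p = 1). Neither was called with the replicate block (adjusted p = 0.287 and 0.533).

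Grik1, a kainate subunit of interneurons, was at 29.2, 30.0 and 22.8 CPM in kainate glia and at 49.97 and 32.1 CPM in sham glia, all lower after kainate. Its log2 fold change of −0.59 (SE 0.37, adjusted p = 1) became −0.63 (SE 0.24, adjusted p = 0.209) with the block, a call in a fit that called 5.79% of all genes. Gria4 was at 50.2, 46.8 and 30.8 CPM in kainate glia and at 80.0 and 46.5 in sham glia, which overlapped. It went from −0.57 (SE 0.42, adjusted p = 1) to −0.63 (SE 0.22, adjusted p = 0.154) with the block, again a call. The block compares each number with its own partner: in replicates 1 and 3 both genes were lower in the kainate library, and kainate replicate 2 has no partner in glia. In replicate 1 the sham glia library was made from 0.05 ng RNA with 15 PCR cycles and the kainate one from 1 ng with 10. Markers of glial cell types were also called in this comparison, though only with the block, since the fit of group means called 0 markers of any list in glia. With the block 3 of 4 oligodendrocyte precursor and 3 of 4 oligodendrocyte markers were lower after kainate, as were 1 of 4 microglia and 2 of 5 astrocyte markers, 1 of 3 excitatory and 1 of 3 pericyte markers. Higher were 1 astrocyte marker (Gfap), 1 of 4 neuron markers and 1 of 5 GABAergic markers. Summed precursor markers were at 2098, 1208 and 514 CPM in kainate glia and at 3256 and 977 CPM in sham glia, and summed oligodendrocyte markers at 24323, 10013 and 3883 against 34507 and 7325. Fewer cells of a type and less RNA per cell cannot be told apart in these pools, and the part of the precursors in the Gria4 and Grik1 values was not tested.

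Gria1, Gria3, Grik3, Grik4 and Grik5 overlapped in glia as well. Gria1 was at 75.4 to 211 CPM in kainate and 117 to 192 in sham glia, with a log2 fold change of 0.03 (95% interval −0.99 to 1.06). Its sign was not stable: DESeq2's size factors gave −0.05, the replicate block −0.33, and leaving out single glia libraries −0.30 to 0.42. Without both low-input libraries Gria1 was at −0.54 and Grik5, at −0.33 with all libraries, at 0.21. The other differences were −0.42 for Gria3, 0.50 for Grik3 and 0.42 for Grik4.

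**Figure D3:**
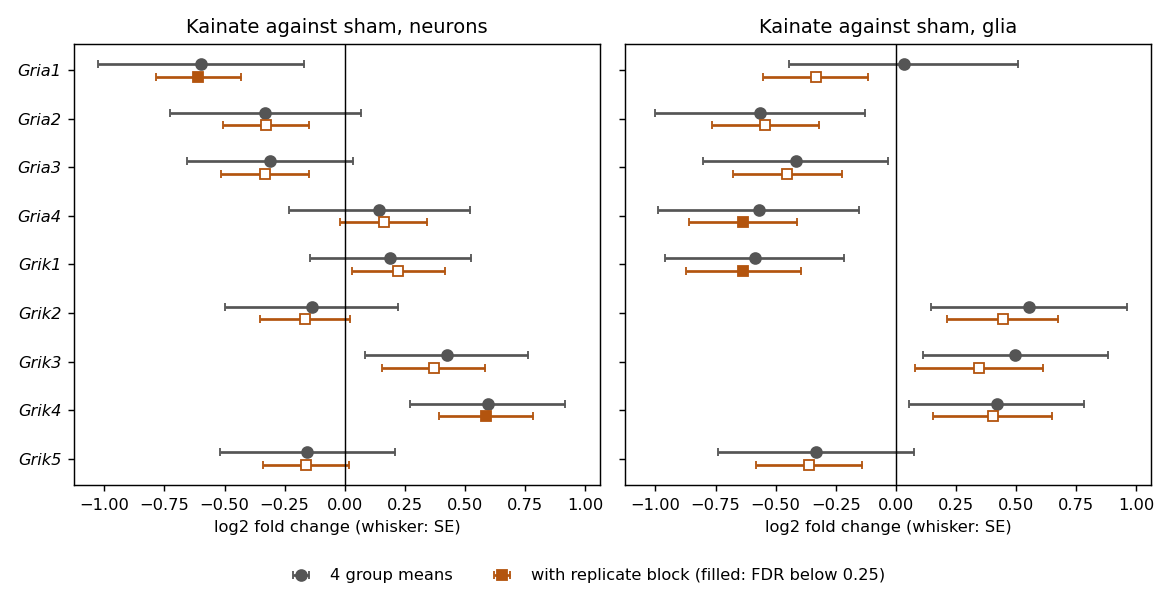
Log2 fold change of kainate over sham (horizontal axis, whisker SE) for each subunit in neurons (left) and glia (right), from the fit of 4 group means (grey) and with the replicate block (orange, filled where FDR was below 0.25). The filled squares are Gria1 (−0.61) and Grik4 (0.59) in neurons and Gria4 (−0.63) and Grik1 (−0.63) in glia, and no grey point was called.

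Whether kainate acted differently in neurons and glia was tested as the difference between both effects. For 0 of 9 subunits did it pass (0.00246% of all genes did, by edgeR), and 0 of 9 had an unadjusted p below 0.05 (0.909% of all genes had). DESeq2's Wald test called 0 of 9, and 0.174% of 17780 genes with an adjusted p. The largest difference was that of Grik1, 0.78 (SE 0.50, adjusted p = 1), followed by Gria4 at 0.71 and Grik2 at −0.69. With the replicate block, which called 1.94% of all genes, 0 of 9 were called, and those nearest were Grik1 (0.86, adjusted p = 0.326) and Gria4 (0.80, adjusted p = 0.340).

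The makeup of each receptor family was described within each library from CPM per kb, which needs no scaling between libraries. Gria1 and Gria2 together made up 91.1% to 92.95% of the summed AMPA subunits in sham neurons and 89.0% to 91.6% in kainate neurons. Of the AMPA sum, Gria1 took 46.6% to 54.0% in sham and 43.1% to 48.4% in kainate neurons, and Gria2 39.0% to 44.4% and 40.5% to 47.1%. Only Gria4 separated the groups, with 2.40% to 3.75% in sham and 4.10% to 5.42% in kainate neurons. In glia Gria4 had a larger share, 9.23% and 12.3% in sham and 6.53% to 14.2% after kainate.

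Among the kainate subunits of neurons, Grik5 held the largest share in sham libraries, 45.5% to 51.1%, and 37.3% to 46.6% after kainate. Grik4 had 19.2% to 21.8% in sham and 22.7%, 27.4% and 37.6% in kainate neurons, so that the groups did not overlap. For each CPM per kb of Grik5 there were 0.4875, 0.735 and 1.00 of Grik4 in kainate neurons (replicates 1, 2 and 3), against 0.391 to 0.480 in sham neurons, so that replicate 1 was close to the highest sham library and replicate 3 had both genes nearly level. Grik4 and Grik5 together nevertheless held 66.6% to 71.0% in sham and 64.7% to 75.1% in kainate neurons. In glia the channel-forming Grik1, Grik2 and Grik3 took more of the sum, 41.2% and 47.9% in sham and 47.4% to 50.6% after kainate, against 24.9% to 35.3% over all neuron libraries. Glial Grik2 was at 20.2% and 21.1% in sham and 28.4% to 31.3% after kainate, and Grik1 at 17.4% and 18.6% in sham and 10.8% to 12.8% after kainate.

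Set against each other, the families differed between the groups as well. For each CPM per kb of kainate subunits there were 5.39, 5.71 and 5.85 of AMPA subunits in sham neurons and 4.16, 3.89 and 3.66 in kainate neurons. The ratio was 2.42 and 3.11 in sham glia and 1.66, 2.10 and 2.37 in kainate glia. Each kainate library was thus below each sham library of its fraction, and every glia library below every neuron library. In neurons the mean AMPA sum was 585 ± 70.7 CPM per kb in sham and 431 ± 65.9 after kainate, and the kainate receptor sum 104 ± 17.1 and 110 ± 10.3 (SD, n = 3 each). These sums rest on Gria1 and Gria2 in one family and on Grik4 and Grik5 in the other, and as scores over chosen genes they carry no test.

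**Figure D4:**
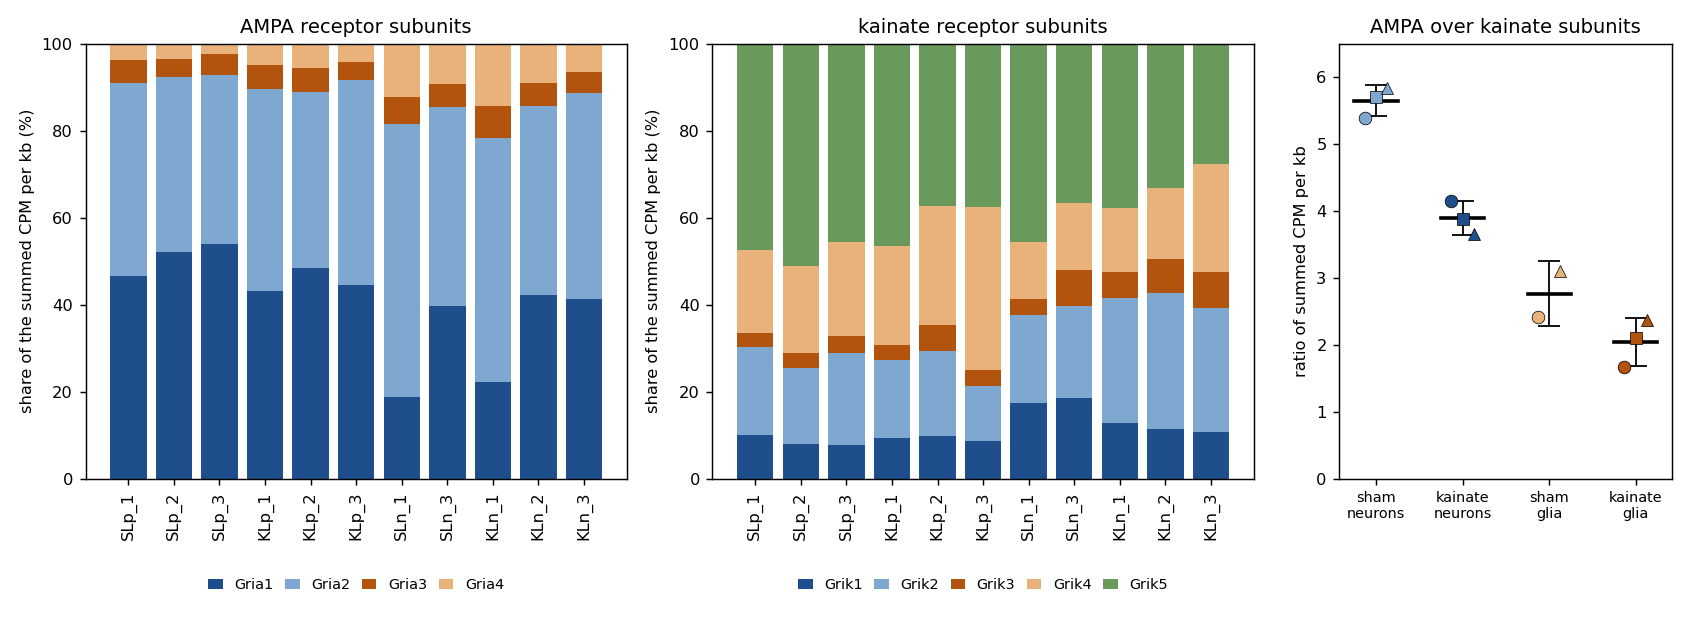
Share of each subunit in the summed CPM per kb of its family (left, AMPA, and middle, kainate, in % of the sum for each library, labelled by group and replicate) and the ratio of the AMPA to the kainate sum (right, with mean and SD by group). Sham neurons sit between 5.39 and 5.85 on the ratio, kainate neurons between 3.66 and 4.16, and all glia libraries at or below 3.11.

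Genes whose products work with the receptors were read from fixed lists. The 15 auxiliary subunits of AMPA receptors (TARPs of the Cacng family, cornichons, Shisa proteins and others that set gating and surface delivery) were mostly neuronal, with 11 of 15 higher in neurons and 3 of 15 lower over both treatments (median log2 fold change 2.22, beside −0.47 over all genes). Cacng3 (2.78), Shisa6 (2.72) and Shisa7 (2.71) had the largest positive values. Cacng4 stood on the other side, with 3.07 to 8.61 CPM in neurons and 11.4 to 129 in glia (−3.49, SE 0.50, adjusted p = 0.000189), together with Shisa8 (−1.29, adjusted p = 0.0578). Shisa8 was called in sham mice (−2.37, adjusted p = 0.0339) but not after kainate (−0.20, adjusted p = 0.852), nor over both without the low-input libraries (adjusted p = 0.254). Cacng5 was called lower too (−0.66, adjusted p = 0.216), a call that ended without kainate glia replicate 1 or 2, kainate neurons replicate 2 or 3, sham glia replicate 1, or sham neurons replicate 2 or 3 (adjusted p = 0.295 to 0.363). Over both treatments 11 of 21 settings run called Cacng5. Within a treatment it was called after kainate (−1.49, adjusted p = 0.0585) but not in sham mice (0.18, adjusted p = 0.900). In sham mice it was at 20.5 ± 8.17 CPM in neurons and 18.1 ± 4.46 in glia (SD, n = 3 and 2).

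Kainate left 0 of 15 auxiliary AMPA subunits called in neurons and 0 of 15 in glia. With the replicate block 3 were upregulated in neurons (Shisa8 1.03, Gsg1l 0.93 and Cacng4 0.65, adjusted p = 0.0546, 0.00822 and 0.176) and 1 downregulated (Shisa9, −0.62). In glia the block called Cacng5 upregulated (1.63, adjusted p = 2.01e-05) and Cacng4, Shisa7, Shisa8 and Shisa9 downregulated. Cacng5 was at 81.1, 67.1 and 37.4 CPM in kainate glia and 21.3 and 15.0 in sham glia, with no overlap. Cacng4 in glia was at 72.5, 36.0 and 11.4 CPM after kainate and 129 and 28.0 in sham. The glia libraries stood in the same order for the summed markers of oligodendrocyte precursors, oligodendrocytes, astrocytes, microglia and pericytes. The part of these cells in the Cacng4 values was not tested. The kainate effect differed between neurons and glia for 0 of 15, and with the block for Shisa8 (2.27), Cacng4 (1.71) and Cacng5 (−1.60), with adjusted p = 0.00468, 0.00348 and 0.00398. Neto1 and Neto2, which bind kainate receptors and slow their closing, were both higher in neurons (2.61 and 1.26, adjusted p = 3.43e-05 and 0.0628), and 0 of 2 were called after kainate in either fraction, with the block or without it.

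Of 10 scaffold and trafficking genes 7 were higher in neurons and 0 lower, led by the kinase Camk2a (3.03, adjusted p = 3.52e-05). With the replicate block Pick1 (0.55) and Prkcz (0.47) were called higher too, and Dlg1 lower (−0.46). Kainate gave 0 of 10 calls in neurons and 0 of 10 in glia, and with the block Camk2a was downregulated in both (−0.80 and −0.69, adjusted p = 0.0037 and 0.0978). Camk2a was at 509, 420 and 276 CPM in kainate neurons and 728, 669 and 635 in sham neurons. Akap5, which anchors kinases at AMPA receptors, was lower with the block in neurons (−0.69, adjusted p = 0.0562), and Prkcz in glia (−0.59, adjusted p = 0.220).

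The extracellular partners, which cluster the receptors from the synaptic cleft, held the one listed gene that kainate changed in the fit of group means. Nptx2, a pentraxin that binds AMPA receptors and is known to be induced by activity, was at 537, 217 and 299 CPM in kainate neurons and at 53.2, 21.5 and 20.8 CPM in sham neurons. Its log2 fold change in neurons was 3.46 (SE 0.53, adjusted p = 0.0566), 1 of 7 partners called. It was not called without sham neurons replicate 2 (3.25, adjusted p = 0.583) or 3 (3.23, adjusted p = 0.523). In glia Nptx2 was at 37.2, 32.9 and 57.8 CPM after kainate and 11.6 and 5.603 in sham (2.31, SE 0.59, adjusted p = 0.740), and the block called it there too (2.51, adjusted p = 3.48e-09). With the block Nptxr (0.58) and Lrrtm2 (0.51) were also upregulated and C1ql2 (−0.76) and Lrrtm1 (−0.57) downregulated in neurons, while in glia Lrrtm2 was higher (0.67) and Lrrtm1 lower (−0.63). All 7 partners were higher in neurons than in glia, from 0.92 (Lrrtm2) to 3.15 (Nptx1). The Lrrtm2 call was lost without sham glia replicate 3 (0.67, adjusted p = 0.288).

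The enzymes that edit receptor transcripts, Adar and Adarb1, and the brain-specific Adarb2 were higher in neurons (1.31, 1.86 and 2.10). After kainate 0 of 3 were called in either fraction, and with the block Adarb1 was upregulated in glia (1.06, adjusted p = 0.00173). It was at 71.7, 85.1 and 69.5 CPM in kainate glia and at 33.1 and 34.5 in sham glia. Counts per gene do not show how much of the Gria2, Grik1 or Grik2 transcript was edited. Grid1, of the related delta receptor family, was higher in neurons (1.49, adjusted p = 0.000723).

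Across the 11 libraries Pearson r of log2 CPM between the 9 subunits ran from 0.623 (Grik1 with Grik3) to 0.990 (Gria2 with Gria3), with a median of 0.885 over 36 pairs. The points share their fraction, pool and library, so that the difference between neurons and glia enters each r. No correlation within a fraction was computed. By the same measure, among genes with a mean of at least 10 CPM, the nearest to Gria1 were Plxna4 (0.996) and 2900064K03Rik (0.996), to Gria2 Rfx3 (0.994) and Kcnd2 (0.994), and to Gria3 Slc4a3 (0.998) and Kcnd2 (0.996). For Gria4 they were Gpr85 (0.981) and Wwc1 (0.980), and for Grik1 Borcs8 (0.981) and again Gpr85 (0.981). Grik2 was followed by Gm49628 (0.978) and Abhd17c (0.976), and Grik4 by Mapk11 (0.991) and Zfp941 (0.990). Sept5 (0.997) and Synj1 (0.994) were nearest to Grik5. Grik3 had the weakest neighbours, the protocadherins Pcdhb16 (0.957) and Pcdhb19 (0.953).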

How the data were processed

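Nuclear mRNA of the left hippocampus was measured in 11 libraries (SMART-Seq v4, no molecular identifiers). The authors trimmed reads with Trim Galore 0.4.3, mapped them to mm10 by Rsubread, and used featureCounts with GENCODE M16 to obtain the raw counts per gene that they deposited. The strand setting is not given in the sources used here. According to the paper, mRNA libraries of both hemispheres were sequenced in separate runs, on unlike instruments and with either single or paired-end reads. It does not state which library was in which run. The members and the lists of genes were chosen with earlier results of these data known. After 105 genes that carry no symbol were dropped, 40714 genes passed filterByExpr at a count of 10 and a total of 15. TMM scaling and the quasi-likelihood test of edgeR 4.0.16 (R 4.3.3, limma 3.58.1, glmQLFit with legacy=TRUE) were applied to 4 group means over all 11 libraries, with Benjamini-Hochberg adjustment over all genes tested and FDR below 0.25. In this fit replicates had 7 residual degrees of freedom, plus 6.76 from the prior, and a common biological variation coefficient of 0.600. The replicate block leaves fewer residual degrees of freedom. In glia it rests on the pairs of replicates 1 and 3 alone. Calls made only with the block therefore lean more on the prior, which is shared over genes. The study fitted each cell type on its own, which is an alternative here.

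Replicate numbers were taken as pairs on the basis of these same counts. Deviations from the group means correlated over genes between kainate and sham libraries of the same number at 0.643, 0.161 and 0.491 in neurons. In glia the values were 0.760 and 0.787, which are not independent, because the deviations of the sham glia libraries mirror each other. Libraries of unlike number were not compared. Fractions of 1 pool share their mice (0.240 to 0.668). The labels do not say what the numbers share between treatments. The block was therefore fitted as the replicate number within each cell type, or the pool for neurons against glia. Other alternatives were DESeq2 1.42.0, 2 filters on low counts, separate, robust and newer fits, FDR below 0.05, the low-input libraries and leaving out each library. The named genes were the 9 subunits, called genes of the lists and, for each subunit, the 2 most correlated genes. Exon lengths and coordinates came from GENCODE on mm10. The test takes its error from the spread between pools, which includes counting error. No bisulfite values were used.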

Additional observations from a re-analysis of the deposited data

How the results depend on the processing

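Neurons against glia over both treatments kept 9 of 9 calls under every alternative run, and the counts in sham and kainate mice stayed within 6 to 9. Kainate against sham gave 0 of 9 calls in either fraction except with the replicate block (2 in neurons, 2 in glia), which changed no call of the difference between fractions. Signs turned only for values that were not called, and the cause was not tested. In neurons Grik2 was 0.03 without sham neurons replicate 1 and 0.081 without kainate neurons replicate 3, and Gria4 was −0.069 without sham neurons replicate 3. In glia Gria1 was −0.053 with DESeq2's size factors and with its Wald test, −0.33 with the block, −0.54 without both low-input libraries, and −0.26, −0.23 and −0.30 without sham glia replicate 1, kainate glia replicate 2 or 3. Grik5 was 0.21 without both low-input libraries and 0.32 without sham glia replicate 1. At the other end of the range over libraries left out, these stood at −0.29 (Grik2) and 0.40 (Gria4) in neurons, and at 0.42 (Gria1) and −0.77 (Grik5) in glia.

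For the difference between fractions, leaving out both low-input libraries gave −0.22 (Gria2), −0.19 (Gria3), 0.28 (Grik3), −0.11 (Grik4) and −0.37 (Grik5). Leaving out sham glia replicate 1 gave −0.26, −0.26, 0.11, −0.12 and −0.47. Grik5 was −0.00537 with low input as a covariate. Grik3 was 0.023 with the block. It was 0.04 and 0.10 when kainate neurons replicate 1 or 3 was left out, 0.0042 without sham neurons replicate 1, and 0.08 and 0.09 without kainate glia replicate 2 or 3. Gria3 was −0.05 without kainate neurons replicate 1. The other ends were 0.60 (Gria2), 0.39 (Gria3), −0.41 (Grik3), 0.46 (Grik4) and 0.62 (Grik5). Without length correction Gria2 took 63.1% of the AMPA sum in sham neurons and Gria1 30.4%. Of the kainate receptor sum Grik2 then took 36.3% and Grik5 34.5%, so that Grik5 no longer led on average. Where sham glia replicate 1 or 3 is left out, 1 library remains in that group. Whether depth or the spread between the 2 or 3 pools of a group limits these comparisons more was not tested.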
